A study of Mus musculus with 12 samples.

Results

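Messenger RNA of 37 genes of glycolysis, lactate handling and the pentose phosphate pathway was followed in mouse T cells with and without Otub1. The genes were taken from a list of glucose and lactate transporters, glycolytic enzymes, kinases of pyruvate dehydrogenase (PDH) and pentose phosphate enzymes. This list was chosen with earlier results of these data known. All 37 occurred among the 23420 genes of the count files. Of these, 36 passed a filter on low counts and were tested, and Eno1 did not.

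Glycolysis splits glucose into pyruvate, and lactate dehydrogenase turns pyruvate into lactate while it restores the NAD+ that the pathway needs. PDH kinases hold back the entry of pyruvate into mitochondria, and the pentose phosphate pathway branches off at glucose 6-phosphate to make NADPH and ribose for nucleotides. Resting T cells use little glucose, and activated T cells raise its uptake and release lactate even when oxygen is present.

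The design had 4 groups of 3 libraries: stimulated knockout, stimulated wild type, fresh knockout and fresh wild type. All mice were C57BL/6, aged 6 to 8 weeks, and carried OT-I, a transgenic T cell receptor for an ovalbumin peptide. Knockout mice lacked OTUB1, a deubiquitinase, through CD4-Cre, a recombinase active in developing T cells. A genotype tag reads OTUB1-DKO. Wild-type mice carried OT-I only, as far as the labels say. Stimulated cells had spent 24 h with plate-bound anti-CD3 and anti-CD28 at 1 µg/ml each, antibodies that mimic antigen and costimulation. Fresh cells are labelled untreated, so culture and stimulation form 1 factor. No label ties the 3 libraries of a group to different animals or cultures. The p-values measure the spread between libraries within groups, estimated over all 4 groups together and not from the groups compared alone.

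The design text names naive splenic CD8 T cells, but a cell type tag names dendritic cells. The libraries carried the T cell transcripts: Cd8a averaged 477 ± 45.7 CPM in stimulated knockout, 593 ± 57.4 in stimulated wild type, 1548 ± 19.6 in fresh knockout and 1519 ± 33.6 CPM in fresh wild type (SD, n = 3). CPM is the count of a gene per 1e6 counts of the genes that passed the filter, with library sizes scaled by TMM factors. The dendritic cell gene Itgax was at 1.23 ± 0.337, 1.52 ± 0.322, 38.2 ± 6.30 and 36.2 ± 5.05 CPM in the same groups. Cd74, H2-Aa, H2-Ab1 and Cst3, also on the dendritic cell list, were higher, with Cd74 at 46.5 ± 4.97, 57.9 ± 7.41, 565 ± 116 and 660 ± 60.3 CPM. The rest of that list, Zbtb46, Flt3, Xcr1, Clec9a and Siglech, was lower than Itgax in both fresh groups, at means of 3.52 to 22.1 CPM. The 8 CD8 T cell markers summed to 6072 to 6538 CPM in the fresh libraries, the 10 dendritic cell markers to 1103 to 1674 CPM and the 6 B cell markers to 113 to 169 CPM. Depth ranged from 15064488 to 25920035 gene counts per library. Otub1 was at 14.8 ± 1.26 CPM in stimulated knockout against 94.0 ± 7.48 CPM in stimulated wild type, and at 27.6 ± 1.91 CPM in fresh knockout against 62.8 ± 15.4 CPM in fresh wild type. Y-linked reads were found in 3 libraries, stimulated knockout replicate 3, fresh knockout replicate 2 and fresh wild-type replicate 3 (5958 to 9563 counts, against 2 to 10 in the others). These 3 groups thus held libraries from mice of both sexes, so their spread is not technical alone. In stimulated wild type, with no such library, the spread may be technical. In the stimulated groups, knockout replicate 2 had the highest level of 24 of the 36 tested genes within its group, and wild-type replicate 3 had the lowest level of 26.

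In activated cells, knockout was set against wild type within the stimulated groups. Many glycolytic genes were higher without Otub1, at steps from glucose uptake to lactate export, while 10 of the 26 glycolysis and lactate genes did not pass the test. Over the 36 tested genes 18 rose and 1 fell, at an adjusted p under 0.05 in edgeR, a test for counts. Of all 12759 genes tested, 9.30% were called, 5.08% higher and 4.22% lower. The 36 were chosen with earlier results of these data known, so the shares given here are not an independent test. The groups did not overlap for 20 genes that were higher and 2 that were lower, against 14.3% and 13.1% of all genes. Among the 26 glycolysis and lactate genes tested 16 rose, with a median log2 fold change of 0.42 against −0.0048 over all genes. Among the 7 pentose phosphate genes 1 rose (median log2 fold change 0.06), and of the 3 PDH kinase genes 1 rose and 1 fell. The pentose phosphate share called, 14.3%, was not below the 9.30% of all genes, and the branches were not tested against each other. Without wild-type replicate 3 the count of higher genes was 10 in place of 18, without both that library and knockout replicate 2 it was 9, and in a fit of the stimulated groups alone it was 12. The genes lost without wild-type replicate 3 were Gpi1, Pfkp, Pgk1, Eno3, Pkm, Ldha, Pdk1 and Pgd. The 8 CD8 T cell markers summed to 2171 to 2320 CPM in stimulated knockout, against 2389 to 2552 CPM in stimulated wild type, and their part in the result was not tested. These markers did not move as 1: Cd3e, Cd3d, Cd3g, Cd8a and Lck were lower in every stimulated knockout library than in any stimulated wild-type library. Cd8b1 and Cd2 overlapped, and Thy1 was higher, at 558 to 652 CPM in stimulated knockout against 447 to 494 CPM in stimulated wild type. CPM are shares of a library, so fewer cells of a type and less RNA per cell cannot be told apart.

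**Figure D1:**
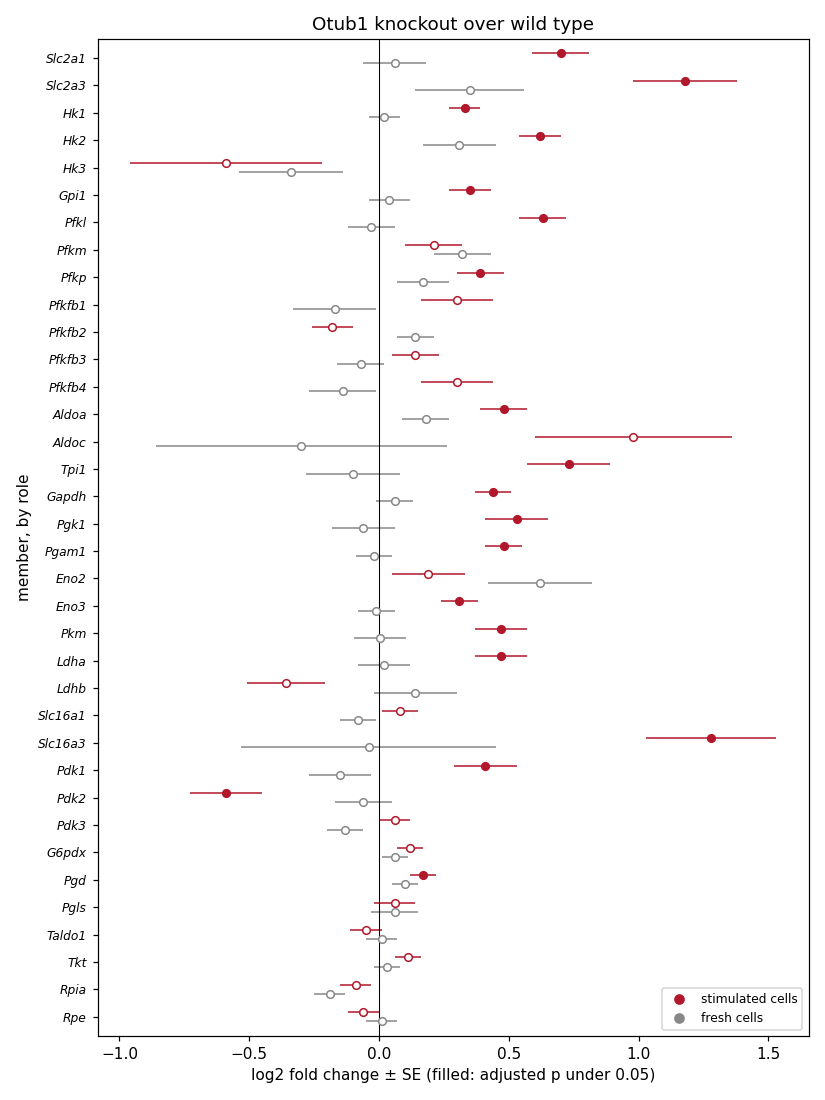
Log2 fold change of knockout over wild type, ± SE, for the 36 tested genes by role, in stimulated cells (red) and fresh cells (grey). Filled points passed an adjusted p under 0.05: 19 in stimulated cells and 0 in fresh cells.

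Both glucose transporter genes rose. Slc2a1, which encodes GLUT1, the main transporter of activated T cells, was at 202, 268 and 217 CPM in the stimulated knockout libraries, against 135, 164 and 123 CPM in stimulated wild type (log2 fold change 0.70, SE 0.11, edgeR adjusted p = 0.00117). Slc2a3, which encodes the high-affinity transporter GLUT3, was at 127, 232 and 113 CPM in stimulated knockout, against 79.2, 75.9 and 52.8 CPM in stimulated wild type (log2 fold change 1.18, SE 0.20, edgeR adjusted p = 0.00266). The groups did not overlap for either gene, and knockout replicate 2 was the highest for both.

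Hexokinases trap glucose in the cell as glucose 6-phosphate. Hk2, the inducible isozyme, was at 344, 416 and 355 CPM in stimulated knockout, against 245, 260 and 220 CPM in stimulated wild type (log2 fold change 0.62, SE 0.08, edgeR adjusted p = 0.000408). Hk1, the isozyme of resting cells, was at 189, 217 and 187 CPM in stimulated knockout, against 166, 160 and 144 CPM in stimulated wild type (log2 fold change 0.33, SE 0.06, edgeR adjusted p = 0.00514). Every knockout library lay above every wild-type library for both genes. Hk3, an isozyme best known from myeloid cells, was under 1 CPM in all 6 stimulated libraries and was not called (edgeR adjusted p = 0.361).

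Gpi1, which isomerises glucose 6-phosphate, rose with a log2 fold change of 0.35 (SE 0.08, edgeR adjusted p = 0.0121). The next step, the committed one, is run by phosphofructokinase, whose liver-type subunit gene Pfkl was at 281, 327 and 294 CPM in stimulated knockout, against 201, 223 and 161 CPM in stimulated wild type (log2 fold change 0.63, SE 0.09, edgeR adjusted p = 0.000532). The platelet-type gene Pfkp rose by 0.39 on the log2 scale (SE 0.09, edgeR adjusted p = 0.0157). Neither group of libraries overlapped the other for these genes. The muscle-type gene Pfkm was at 15.6, 19.5 and 16.0 CPM in stimulated knockout, against 16.9, 13.9 and 13.4 CPM in stimulated wild type, with overlap, and was not called (edgeR adjusted p = 0.269). None of the 4 genes for the bifunctional enzymes that set fructose 2,6-bisphosphate, the activator of phosphofructokinase, was called. Their log2 fold changes were 0.30 for Pfkfb1, −0.18 for Pfkfb2, 0.14 for Pfkfb3 and 0.30 for Pfkfb4 (edgeR adjusted p from 0.171 to 0.337).

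The enzymes that split the sugar and carry out the triose steps rose together. Tpi1, triose phosphate isomerase, was at 781, 1152 and 736 CPM in stimulated knockout, against 593, 618 and 399 CPM in stimulated wild type (log2 fold change 0.73, SE 0.16, edgeR adjusted p = 0.00950). Pgk1, the first ATP-making enzyme of the pathway, was at 1743, 2426 and 1630 CPM in stimulated knockout, against 1400, 1462 and 1154 CPM in stimulated wild type (log2 fold change 0.53, SE 0.12, edgeR adjusted p = 0.0117). In both, knockout replicate 2 stood highest and wild-type replicate 3 lowest of the 6 libraries. Gapdh, the dehydrogenase between these steps, was at 782, 853 and 786 CPM in stimulated knockout, against 571, 661 and 554 CPM in stimulated wild type (log2 fold change 0.44, SE 0.07, edgeR adjusted p = 0.000964). Pgam1, phosphoglycerate mutase, was at 670, 750 and 681 CPM in stimulated knockout, against 550, 517 and 441 CPM in stimulated wild type (log2 fold change 0.48, SE 0.07, edgeR adjusted p = 0.000633). These groups were apart as well, with less spread between knockout libraries. Aldoa, the main aldolase, rose by 0.48 on the log2 scale (SE 0.09, edgeR adjusted p = 0.00310). The minor aldolase gene Aldoc was at 7.66, 13.6 and 5.21 CPM in stimulated knockout, against 5.86, 5.92 and 1.70 CPM in stimulated wild type, where the groups overlapped and the gene was not called (edgeR adjusted p = 0.128).

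Several of these counts rest on part of the transcript. As a measure of sequence shared with other genes, 50-base windows of the longest coding transcript were looked up in all annotated transcripts, pseudogenes included. Windows found in another gene made up 82.5% for Gapdh, 72.2% for Eno1, 68.0% for Pgk1, 41.5% for Pgam1, 34.4% for Pkm, 16.6% for Ldha and 7.51% for Tpi1, against 0.00% for Hk2 and Slc16a3. Reads that fit more than 1 place were set aside in the counting, so levels of such genes are uncertain. Eno1, the main enolase gene, had 0 to 5 counts per library and no value is drawn from it. Eno3, best known as the muscle enolase, rose by 0.31 on the log2 scale (SE 0.07, edgeR adjusted p = 0.00951). Eno2, best known from neurons, was at 5.26 ± 0.393 CPM in stimulated knockout and 4.59 ± 0.554 CPM in stimulated wild type and was not called (edgeR adjusted p = 0.448).

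At the end of the pathway Pkm, pyruvate kinase, was at 2727, 3509 and 2626 CPM in stimulated knockout, against 2219, 2391 and 1810 CPM in stimulated wild type (log2 fold change 0.47, SE 0.10, edgeR adjusted p = 0.0121). Ldha, the lactate dehydrogenase subunit that favours lactate, was at 2304, 2939 and 2208 CPM in stimulated knockout, against 1862, 1980 and 1552 CPM in stimulated wild type (log2 fold change 0.47, SE 0.10, edgeR adjusted p = 0.00921). The groups did not overlap for either gene. Ldhb, the other subunit, was at 10.8, 8.89 and 7.40 CPM in stimulated knockout, against 11.8, 9.83 and 13.1 CPM in stimulated wild type, and was not called (edgeR adjusted p = 0.166).

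The lactate exporter gene had the largest fold change of the 36. Slc16a3, which encodes MCT4, the low-affinity exporter of highly glycolytic cells, was at 91.5, 161 and 94.6 CPM in stimulated knockout, against 50.2, 66.0 and 26.8 CPM in stimulated wild type. This was a 2.43-fold difference (log2 fold change 1.28, SE 0.25, edgeR adjusted p = 0.00526), with no overlap and the highest value in knockout replicate 2. Slc16a1, which encodes the related transporter MCT1, was at 268, 271 and 256 CPM in stimulated knockout, against 264, 245 and 243 CPM in stimulated wild type. It was not called (log2 fold change 0.08, SE 0.07, edgeR adjusted p = 0.522).

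The PDH kinase genes did not move as 1 group. Pdk2, a widely expressed isozyme, was at 2.90, 2.72 and 3.18 CPM in stimulated knockout, against 4.31, 4.96 and 4.07 CPM in stimulated wild type (log2 fold change −0.59, SE 0.14, edgeR adjusted p = 0.0157). It was the only gene of the 36 that fell, and the call was lost without knockout replicate 1 or 2 or wild-type replicate 2, and without both libraries at the extremes (edgeR adjusted p of up to 0.0725). Pdk1, an isozyme known as a target of the hypoxia factor HIF-1, was at 129, 165 and 121 CPM in stimulated knockout, against 121, 110 and 81.6 CPM in stimulated wild type (log2 fold change 0.41, SE 0.12, edgeR adjusted p = 0.0475). The lowest Pdk1 knockout library lay beside the highest wild-type library, and 14 of 19 alternatives lost the call (adjusted p of up to 0.407). Pdk3 was at 61.9 ± 3.00 CPM in stimulated knockout and 59.5 ± 1.80 CPM in stimulated wild type, and was not called (edgeR adjusted p = 0.644).

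In the pentose phosphate branch the summed levels of the genotypes overlapped. Its 7 genes summed to 1169, 1087 and 1168 CPM in stimulated knockout, against 1067, 1112 and 1055 CPM in stimulated wild type. The 27 glycolysis and lactate genes summed to 13349, 16949 and 12921 CPM in stimulated knockout, against 10668, 11287 and 8917 CPM in stimulated wild type. Knockout replicate 2, the highest library for the glycolysis sum, was thus the lowest knockout library for the pentose phosphate sum. Pgd, which makes NADPH in the oxidative arm, was at 172, 159 and 171 CPM in stimulated knockout, against 147, 155 and 144 CPM in stimulated wild type (log2 fold change 0.17, SE 0.05, edgeR adjusted p = 0.0320). This call was lost under 7 of 19 alternatives (adjusted p of up to 0.152). G6pdx, glucose 6-phosphate dehydrogenase, the entry enzyme, was at 107 ± 3.93 CPM in stimulated knockout and 98.6 ± 3.01 CPM in stimulated wild type (log2 fold change 0.12, SE 0.05, edgeR adjusted p = 0.151). Pgls, the lactonase of the same arm, was not called either (log2 fold change 0.06, edgeR adjusted p = 0.715). In the non-oxidative arm Tkt, transketolase, was at 593 ± 36.5 CPM in stimulated knockout and 548 ± 19.0 CPM in stimulated wild type. Tkt, Taldo1, Rpia and Rpe, for transketolase, transaldolase, ribose phosphate isomerase and ribulose phosphate epimerase, had log2 fold changes of 0.11, −0.05, −0.09 and −0.06. These 4 were not called (edgeR adjusted p from 0.203 to 0.670).

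**Figure D2:**
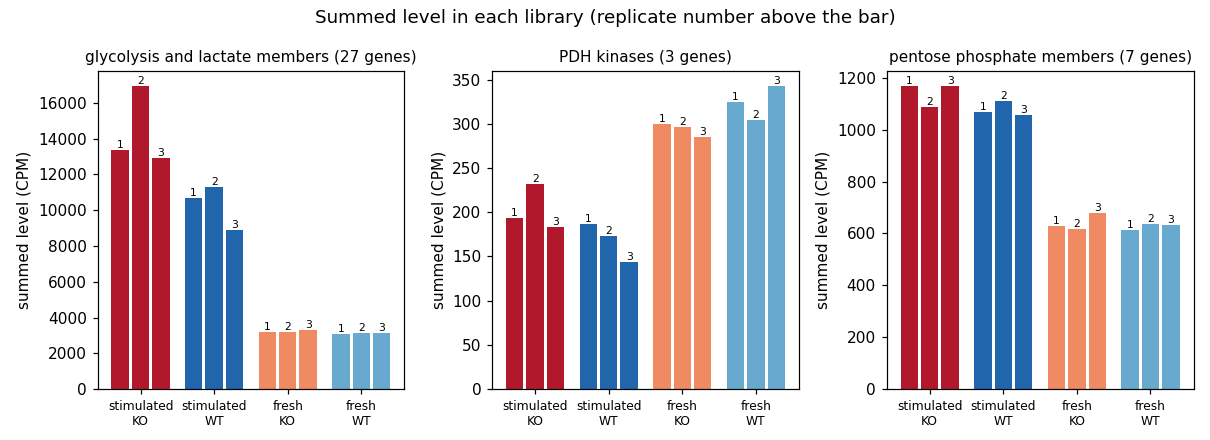
Summed level in CPM of the 27 glycolysis and lactate genes, the 3 PDH kinase genes and the 7 pentose phosphate genes in each library, with the replicate number above each bar. Stimulated knockout libraries hold the 3 highest bars for glycolysis (12921 to 16949 CPM), while the pentose phosphate sums of the stimulated groups overlap.

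**Figure D3:**
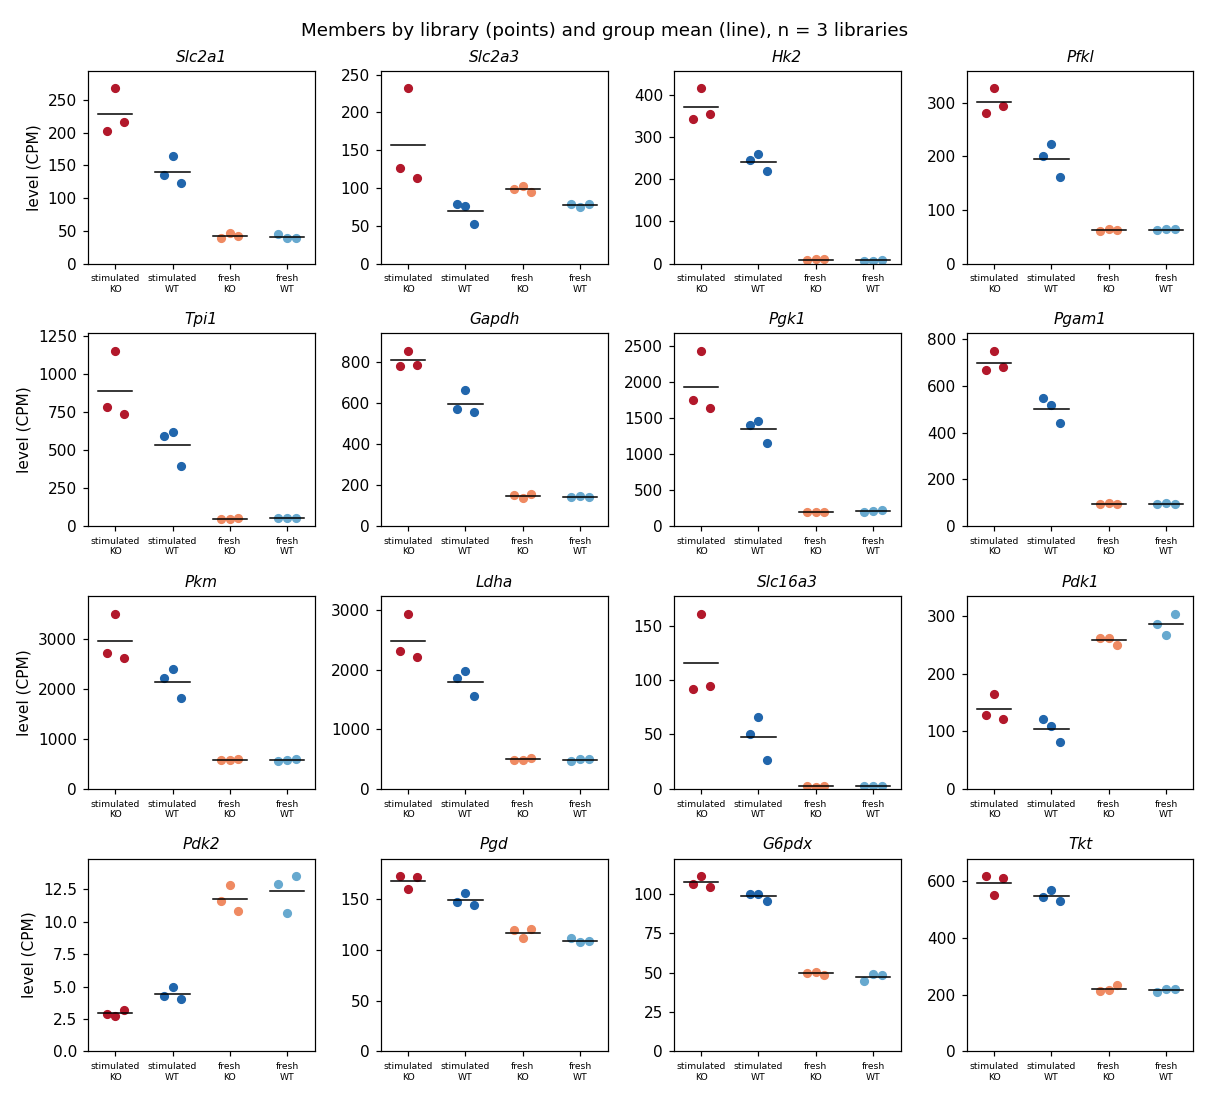
Level in CPM of 16 of the genes in each library, with a line at the group mean (n = 3), in stimulated knockout, stimulated wild type, fresh knockout and fresh wild type. Knockout libraries lie above wild-type libraries in stimulated cells for Slc2a1, Hk2, Pfkl and Slc16a3, and below them for Pdk2.

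Since many of these genes moved in the same direction, the sequence just upstream of their starts was searched for 2 motifs on both strands. ACGTG is the core of sites bound by HIF-1, the hypoxia factor, and CACGTG, which contains it, is the E-box bound by MYC with MAX. The window was the 250 bases before the first start listed for a gene by RefSeq (GRCm38.p6), where 36 of the 37 genes matched and Slc2a3 did not. ACGTG occurred in 6 of 17 windows of genes higher in stimulated knockout and in 7 of 19 windows of the other genes, against 16.6% of 27025 windows of all genes. CACGTG occurred in 1 of the 17 and 4 of the 19 windows, against 6.05% of all. The share with ACGTG was thus 35.3% in genes that rose and 36.8% in the others, among them Eno1, which was not tested. A match is a description of letters and not a site. Among genes that did not rise, Pfkm, Pfkfb2, Slc16a1 and Pdk2 each held 1 CACGTG, which counts as 2 overlapping copies of ACGTG, 1 on each strand. Their windows are not shown. The windows of the 4 genes that rose and held at least 2 copies of ACGTG are shown 5′ to 3′ on the strand of the gene, with each copy, or its reverse complement CACGT, in capitals.
Hk2 (chr6:82774455-82774704, minus strand): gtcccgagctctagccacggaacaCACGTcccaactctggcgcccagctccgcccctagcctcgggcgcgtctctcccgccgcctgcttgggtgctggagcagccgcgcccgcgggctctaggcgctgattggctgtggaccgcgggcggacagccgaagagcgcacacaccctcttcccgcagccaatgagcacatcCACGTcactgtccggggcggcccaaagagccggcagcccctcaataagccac
Pgk1 (chrX:106186850-106187099, plus strand): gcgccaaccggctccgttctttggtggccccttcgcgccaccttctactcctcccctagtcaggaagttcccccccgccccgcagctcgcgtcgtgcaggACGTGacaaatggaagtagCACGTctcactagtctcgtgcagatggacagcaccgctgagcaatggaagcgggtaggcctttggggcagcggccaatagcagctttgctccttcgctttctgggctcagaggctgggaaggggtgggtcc
Ldha (chr7:46845554-46845803, plus strand): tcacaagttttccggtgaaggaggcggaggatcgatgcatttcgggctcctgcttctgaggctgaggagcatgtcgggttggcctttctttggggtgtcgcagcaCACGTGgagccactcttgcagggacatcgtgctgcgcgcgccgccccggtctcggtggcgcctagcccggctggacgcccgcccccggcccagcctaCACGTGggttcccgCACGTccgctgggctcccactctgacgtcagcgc
Slc16a3 (chr11:120948817-120949066, plus strand): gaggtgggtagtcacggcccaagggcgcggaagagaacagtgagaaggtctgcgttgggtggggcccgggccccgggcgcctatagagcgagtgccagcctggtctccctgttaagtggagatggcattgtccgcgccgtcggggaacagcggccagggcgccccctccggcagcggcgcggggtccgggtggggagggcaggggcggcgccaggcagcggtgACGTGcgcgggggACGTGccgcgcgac
In the Ldha window, copies on both strands overlap at its 2 CACGTG sequences, and copies of ACGTG or CACGT start at 5 positions there and at 2 in each of the other windows.

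In resting cells, knockout was set against wild type within the fresh groups. None of the 36 tested genes was called by edgeR, and DESeq2 and limma-voom called 0 as well. Over all genes 1.20% were called, 0.980% higher and 0.219% lower. The groups did not overlap for 7 genes that were higher and 3 that were lower, against 10.6% and 9.42% of all genes. At an unadjusted p under 0.05 there were 3 higher and 1 lower, but the share of all genes at that threshold was not worked out. The median log2 fold change was 0.01, against −0.00018 over all genes. The 37 genes summed to 4117, 4083 and 4254 CPM in fresh knockout, against 4024, 4072 and 4125 CPM in fresh wild type, which overlap.

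The fresh levels of the genes nearest to a call, and of Slc2a3, were as follows, and none of these genes passed the test. Slc2a3 was at 98.7, 103 and 94.8 CPM in fresh knockout, against 79.0, 74.6 and 79.2 CPM in fresh wild type, with no overlap (log2 fold change 0.35, SE 0.21, edgeR adjusted p = 0.474). It was called in a fit of the fresh groups alone (edgeR adjusted p = 0.0082) and without the stimulated libraries knockout replicate 2 and wild-type replicate 3. Eno2 was at 2.23, 1.58 and 2.06 CPM in fresh knockout, against 1.21, 1.31 and 1.27 CPM in fresh wild type (log2 fold change 0.62, SE 0.20, edgeR adjusted p = 0.160). Rpia, which converts ribulose to ribose phosphate, was at 30.1, 30.9 and 32.9 CPM in fresh knockout, against 34.3, 37.7 and 35.2 CPM in fresh wild type (log2 fold change −0.19, SE 0.06, edgeR adjusted p = 0.154). The groups were apart for both genes, at small differences in level. Hk2 was at 8.26, 10.3 and 9.83 CPM in fresh knockout, against 6.92, 7.07 and 9.12 CPM in fresh wild type, which overlap (edgeR adjusted p = 0.315). Pfkm was at 19.8 ± 0.523 CPM in fresh knockout and 15.9 ± 1.43 CPM in fresh wild type (edgeR adjusted p = 0.194).

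Whether the knockout effect differed between stimulated and fresh cells was tested as an interaction, the log2 fold change of knockout over wild type in stimulated cells minus that in fresh cells. The difference was called for 3 of the 36 genes, Pfkl, Pgam1 and Gapdh, all with a larger effect in stimulated cells. Over all genes 2.26% were called, 0.698% with a positive and 1.56% with a negative difference. For Pfkl (chromosome 10, 77986947 to 78010083, GRCm38) the log2 fold change was 0.63 in stimulated and −0.03 in fresh cells, a difference of 0.65 (SE 0.13, edgeR adjusted p = 0.0160). For Pgam1 (chromosome 19, 41911923 to 41918660) it was 0.48 in stimulated and −0.02 in fresh cells, a difference of 0.49 (SE 0.10, edgeR adjusted p = 0.0175). For Gapdh (chromosome 6, 125161715 to 125166467) it was 0.44 in stimulated and 0.06 in fresh cells, a difference of 0.38 (SE 0.10, edgeR adjusted p = 0.0494). Without fresh wild-type replicate 2, or without the libraries with Y-linked reads, none of the 3 was called, and without fresh knockout replicate 1 there was 1. For Gapdh 14 of 18 alternatives lost the call (adjusted p of up to 0.183). For Slc2a1 and Tpi1, with differences of 0.64 and 0.83 on the log2 scale, the test did not pass (edgeR adjusted p = 0.0566 and 0.0784). Slc16a3 had a difference of 1.33 with an SE of 0.55 (edgeR adjusted p = 0.244), so its effect was not shown to depend on stimulation.

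Activation itself was addressed by comparing stimulated with fresh cells within each genotype. In knockout 27 of the 36 genes rose and 6 fell, where 83.9% of all genes were called, 41.7% higher and 42.2% lower. In wild type 27 rose and 7 fell, where 82.3% of all genes were called, 40.8% higher and 41.4% lower. These shares of all genes are large, so a call alone says little about the 36. The groups did not overlap for 27 genes higher and 6 lower in knockout (42.0% and 42.6% of all genes), and for 26 higher and 7 lower in wild type (41.8% and 42.3%). The median log2 fold change of the genes was 1.22 in knockout and 1.13 in wild type, against −0.02 and −0.03 over all genes. The 37 genes made up 1.58% of the scaled counts in stimulated knockout against 0.415% in fresh knockout, and 1.15% in stimulated wild type against 0.407% in fresh wild type.

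The inducible isoforms moved most. Hk2 averaged 372 ± 38.4 CPM in stimulated knockout against 9.47 ± 1.08 CPM in fresh knockout, a 39.1-fold difference (log2 fold change 5.29, SE 0.11, edgeR adjusted p = 1.18e-15). In wild type it averaged 242 ± 20.3 CPM in stimulated against 7.71 ± 1.23 CPM in fresh cells, a 31.6-fold difference (log2 fold change 4.98, SE 0.11, edgeR adjusted p = 4.08e-15). Slc16a3 averaged 116 ± 39.5 CPM in stimulated knockout against 2.50 ± 0.494 CPM in fresh knockout (46.2-fold, edgeR adjusted p = 3.16e-10). These shifts are far larger than the difference between the genotypes in either state. In wild type Slc16a3 averaged 47.7 ± 19.8 CPM in stimulated against 2.57 ± 0.0856 CPM in fresh cells (18.4-fold, edgeR adjusted p = 1.67e-08). Tpi1 rose 17.6-fold in knockout and 9.89-fold in wild type, Pgk1 9.65-fold and 6.42-fold, and Pgam1 7.30-fold and 5.19-fold. Ldha, Pkm, Slc2a1 and Pfkl rose 5.04-fold, 5.07-fold, 5.36-fold and 4.83-fold in knockout, and 3.71-fold, 3.68-fold, 3.44-fold and 3.07-fold in wild type. Gapdh, often used as a reference gene, rose 5.42-fold in knockout and 4.16-fold in wild type. Aldoc rose 6.84-fold in knockout and 2.83-fold in wild type, with overlapping groups in wild type, where limma-voom did not call it (adjusted p = 0.0678).

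**Figure D4:**
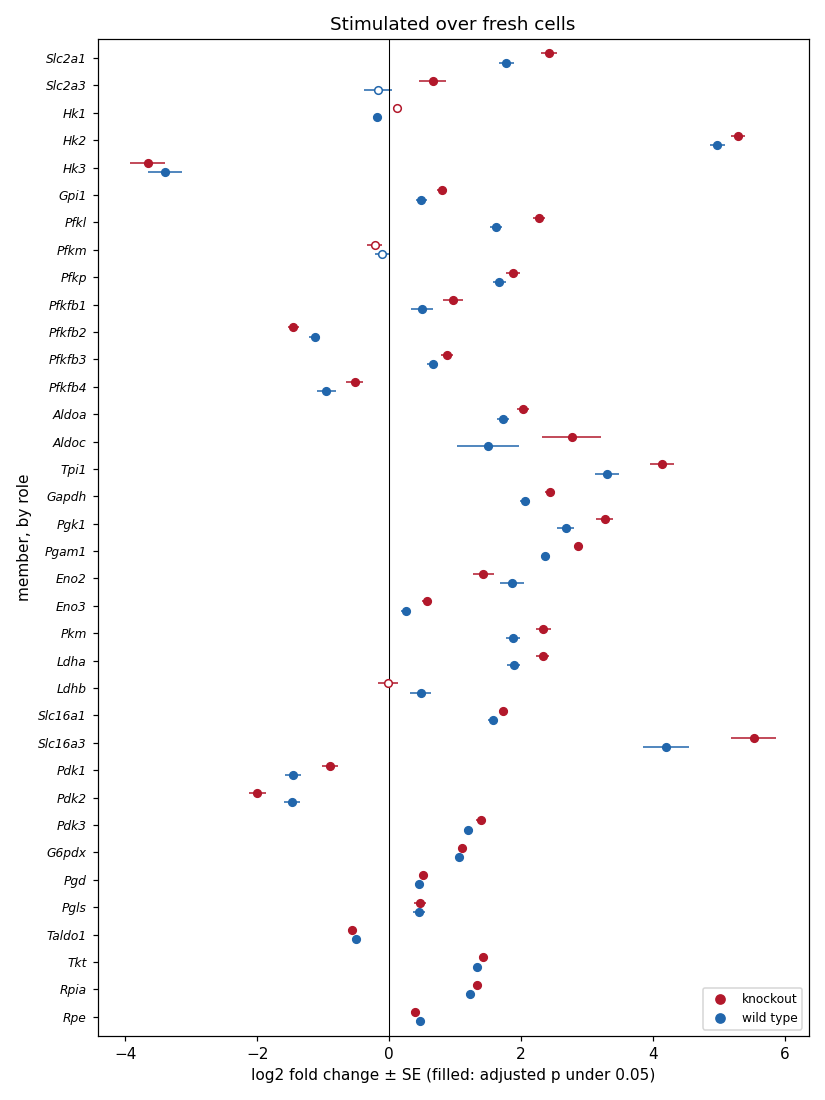
Log2 fold change of stimulated over fresh cells, ± SE, for the 36 tested genes by role, in knockout (red) and wild type (blue). Hk2 (5.29 in knockout and 4.98 in wild type) and Slc16a3 (5.53 and 4.20) lie furthest to the right, and Hk3 (−3.66 and −3.40) furthest to the left.

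A few genes fell on stimulation in both genotypes. Hk3 averaged 0.499 ± 0.208 CPM in stimulated knockout against 6.51 ± 1.78 CPM in fresh knockout, and 0.778 ± 0.0996 CPM in stimulated wild type against 8.22 ± 1.41 CPM in fresh wild type (edgeR adjusted p = 3.73e-09 in knockout and 4.33e-09 in wild type). Marker sums of other cell types were also lower in stimulated cells. The 10 dendritic cell markers summed to 102 to 121 CPM in stimulated knockout against 1103 to 1643 CPM in fresh knockout, and to 112 to 132 CPM in stimulated wild type against 1358 to 1674 CPM in fresh wild type. The 8 myeloid markers found summed to 0.732 to 1.20 CPM in stimulated knockout against 30.9 to 55.3 CPM in fresh knockout, and to 0.482 to 1.16 CPM in stimulated wild type against 37.2 to 58.8 CPM in fresh wild type. The dendritic cell sum was carried by Cd74, H2-Aa, H2-Ab1 and Cst3, and Zbtb46 went the other way, at 7.80 ± 1.11 CPM in stimulated knockout against 3.52 ± 1.09 CPM in fresh knockout, and 4.61 ± 0.562 CPM in stimulated wild type against 3.84 ± 0.467 CPM in fresh wild type. No marker of these lists was at 0 in all libraries, and their part in the fall of Hk3 was not tested. In the stimulated comparison of knockout with wild type the ranges of both lists overlapped.

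Pdk1 and Pdk2 fell in both genotypes while Pdk3 rose. Pdk1 averaged 138 ± 23.1 CPM in stimulated knockout against 259 ± 7.58 CPM in fresh knockout, and 104 ± 20.3 CPM in stimulated wild type against 286 ± 19.0 CPM in fresh wild type (log2 fold change −0.90 in knockout and −1.46 in wild type). Pdk2 had log2 fold changes of −2.00 in knockout and −1.47 in wild type, and Pdk3 of 1.39 and 1.20. The bifunctional enzyme genes split as well: Pfkfb3, whose enzyme mostly makes the activator, rose (log2 fold change 0.88 in knockout and 0.66 in wild type), Pfkfb1 rose (0.97 and 0.50), and Pfkfb2 fell (−1.45 and −1.13), as did Pfkfb4 (−0.52 and −0.95). In the pentose phosphate branch 6 genes rose and Taldo1 fell in each genotype. Tkt rose by 1.42 in knockout and 1.34 in wild type on the log2 scale, Rpia by 1.33 and 1.23 and G6pdx by 1.11 and 1.06. Taldo1 had log2 fold changes of −0.56 in knockout and −0.50 in wild type. Pgd, Pgls and Rpe rose by 0.40 to 0.52 in both genotypes, which is less than most glycolytic genes.

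A small number of calls differed between the genotypes. Slc2a3 rose in knockout (log2 fold change 0.66, edgeR adjusted p = 0.0064) and was not called in wild type (−0.17, edgeR adjusted p = 0.471). Hk1 fell in wild type (−0.19, edgeR adjusted p = 0.0143) and was not called in knockout (0.12, edgeR adjusted p = 0.0876). Ldhb rose in wild type (0.48, edgeR adjusted p = 0.0108) and was not called in knockout (−0.02, edgeR adjusted p = 0.927). The interaction did not pass for any of the 3 (edgeR adjusted p = 0.157, 0.0900 and 0.281). No difference between genotypes in the response to stimulation was thus shown for them. The calls for Hk1 and Ldhb in wild type were lost without stimulated wild-type replicate 3, and that for Hk1 also without fresh wild-type replicate 2 (edgeR adjusted p of up to 0.0969 for Hk1 and 0.0581 for Ldhb).

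Within enzyme families the mixture of isoforms changed with activation, described here as shares of the family's counts with no test. Hk2 held 65.2% ± 0.677 of hexokinase counts in stimulated knockout, 60.5% ± 1.16 in stimulated wild type, 4.80% ± 0.514 in fresh knockout and 3.97% ± 0.704 in fresh wild type (SD, n = 3). The lowest stimulated knockout library, at 64.4%, lay above the highest stimulated wild-type library, at 61.8%. Slc2a1 held 60.3% ± 6.18 of the glucose transporter counts in stimulated knockout, 67.2% ± 3.65 in stimulated wild type, 30.1% ± 1.66 in fresh knockout and 34.5% ± 1.53 in fresh wild type. For Slc2a1 the stimulated groups overlapped, and knockout replicate 2 was the lowest of the 6 at 53.6%. Slc16a3 held 29.9% ± 6.46 of the lactate transporter counts in stimulated knockout, 15.7% ± 5.66 in stimulated wild type, 3.06% ± 0.745 in fresh knockout and 2.96% ± 0.207 in fresh wild type. Ldha held from 97.8% to 99.7% of lactate dehydrogenase counts in all 12 libraries. Pfkm held 1.93% ± 0.0173 of phosphofructokinase counts in stimulated knockout, 2.31% ± 0.295 in stimulated wild type, 8.40% ± 0.108 in fresh knockout and 7.38% ± 0.762 in fresh wild type.

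**Figure D5:**
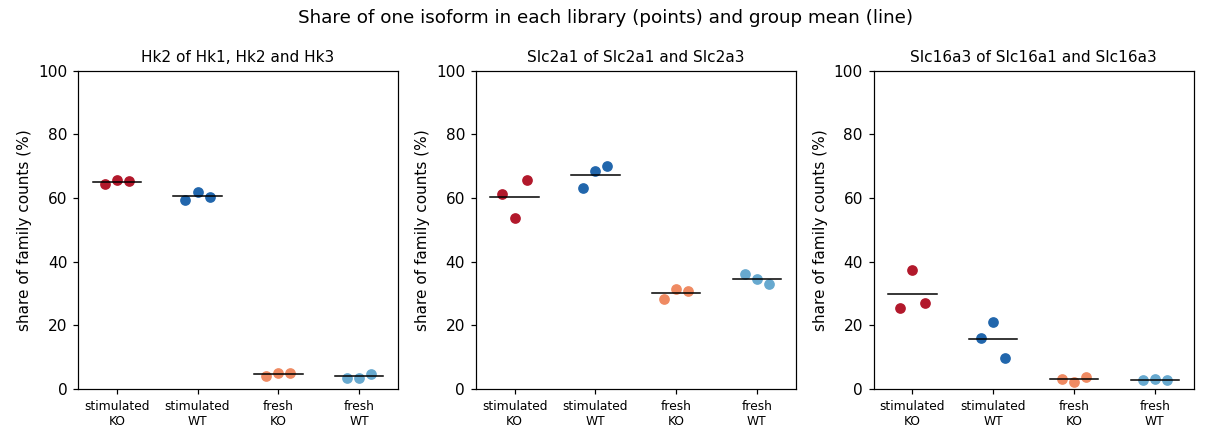
Share of Hk2, Slc2a1 and Slc16a3 in the counts of their families, in percent, in each library with a line at the group mean (n = 3). Hk2 moved to over 59% of hexokinase counts in every stimulated library, and Slc16a3 was higher in stimulated knockout (25.4% to 37.3%) than in stimulated wild type (9.91% to 21.2%).

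Levels of different genes were compared per kilobase of annotated exon (GENCODE M21). By these counts Ldha was the highest of the 37 in each group. It was at 1311 CPM per kilobase in stimulated knockout, 949 in stimulated wild type, 260 in fresh knockout and 256 in fresh wild type. Pkm followed in each group, at 1137, 823, 224 and 224 CPM per kilobase in the same order. Pgk1 came next in the stimulated groups, at 1059 CPM per kilobase in knockout and 734 in wild type. In fresh cells Aldoa (178 CPM per kilobase) and Gpi1 (172) came next in knockout, and Gpi1 (167) and Aldoa (158) in wild type. The order of these genes is uncertain because of windows shared with other genes. These made up 25.3% for Gpi1 and 13.5% for Aldoa, beside the shares given for Pgk1, Pkm and Ldha. They were most frequent for Gapdh (82.5%) and Eno1 (72.2%), whose places below Ldha are therefore uncertain.

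Neighbouring genes of glucose metabolism were read from 4 further lists that hold none of the 37 genes, of which 48 of 62 passed the filter. In stimulated knockout against stimulated wild type 5 rose and none fell (median log2 fold change 0.07). This is 10.4% called, all higher, against 5.08% of all genes called higher and 4.22% called lower. The groups did not overlap for 18 genes that were higher and 4 that were lower, against 14.3% and 13.1% of all genes. At an unadjusted p under 0.05, 12 were higher and 4 lower. For this and the other counts at an unadjusted p, the share of all genes was not worked out. The 5 were Pgm2, a phosphoglucomutase, at 90.9 ± 16.2 against 60.7 ± 8.90 CPM (log2 fold change 0.58, edgeR adjusted p = 0.00682), Slc2a6, a lysosomal sugar transporter (0.40, 0.0404), Bsg, the chaperone of lactate transporters (0.27, 0.00129), Galk1, galactokinase (0.27, 0.0344), and Prps1, which makes phosphoribosyl pyrophosphate (0.26, 0.0169). Bsg also had a larger knockout effect in stimulated than in fresh cells (difference 0.29, edgeR adjusted p = 0.0241). None of the 10 tested genes for pyruvate entry into mitochondria was called between the genotypes, with 1 higher in stimulated cells at an unadjusted p under 0.05. All 10 rose on stimulation in both genotypes, where 41.7% of all genes rose in knockout and 40.8% in wild type. None of the 11 regulators of glucose use was called between the stimulated genotypes, and 1 was higher at an unadjusted p under 0.05. Myc, which drives metabolic genes in activated T cells, averaged 774 ± 13.8 CPM in stimulated knockout and 724 ± 27.0 CPM in stimulated wild type (edgeR adjusted p = 0.262). Hif1a, the oxygen-regulated subunit of HIF-1, averaged 454 ± 102 CPM in stimulated knockout and 373 ± 13.0 CPM in stimulated wild type (edgeR adjusted p = 0.105). Its stimulated libraries were at 410, 572 and 382 CPM in knockout and 375, 385 and 359 CPM in wild type, which overlap, with knockout replicate 2 the highest. In fresh knockout against fresh wild type none of the 48 was called, with 3 higher and 4 lower at an unadjusted p under 0.05.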

How the data were processed

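RNA was sequenced from 12 mouse spleen cell samples. The authors deposited raw read counts per gene for each library, and the submitters' processing notes name HTSeq, TopHat, TopHat2, DESeq2 and mm10 without giving their roles here. Tool versions, the annotation and the strand setting were not stated, so overlapping and antisense genes can share reads. The 5 summary lines of each file (5.22% to 6.43% of its total) were left out. Groups came from the source labels. Replicate numbers only name libraries.

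Counts were fitted in R 4.3.3 with edgeR 4.0.16 (filterByExpr by group, TMM, quasi-likelihood, 1 coefficient per group, 12 libraries), two-sided, with Benjamini-Hochberg adjustment over all 12759 genes tested and calls at an adjusted p under 0.05. Alternatives used DESeq2 1.42.0 and limma-voom (limma 3.58.1), DESeq2 size factors within edgeR, no filter, only the groups compared, and libraries left out. One alternative, without stimulated knockout replicate 2 and stimulated wild-type replicate 3, was chosen after seeing the data. The tests were also run on simulated counts, with the same spread for every gene and no difference between fresh and stimulated cells. The simulation held no shift of single libraries, so it does not cover calls that rest on such libraries. Tigar was listed as 9630033F20Rik.

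Members and lists were chosen with earlier results of these data known. All 37 members are accounted for. In each comparison the 8 called members with the largest fold changes, and the isoforms of a family, are given in most detail, and up to 3 called genes per neighbouring list. The other called gene of the glycolysis list, Myc and Hif1a were named after their values were seen. Coordinates and exon lengths are from GENCODE M21 on GRCm38, the assembly of mm10.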

Additional observations from a re-analysis of the deposited data

Results flagged for a closer look

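For 3 genes the effect of Otub1 loss differed between stimulated and fresh cells by the interaction test in edgeR, with the difference given as log2 fold change in stimulated minus fresh cells. It was 0.65 for Pfkl (edgeR adjusted p = 0.0160), 0.49 for Pgam1 (edgeR adjusted p = 0.0175) and 0.38 for Gapdh (edgeR adjusted p = 0.0494). In all 3 genes every stimulated knockout library lay above every stimulated wild-type library, and the fresh groups overlapped. For Gapdh and Pgam1, 82.5% and 41.5% of the 50-base windows of the transcript occur in other genes, against 0.0543% for Pfkl. The part of such reads in the result was not tested.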

How the results depend on the processing

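Over 36 genes and 5 comparisons, 3389 of the values recomputed under an alternative, those of Otub1 included, kept their call and its direction, 66 lost the call, 23 gained one and 0 of the called ones turned round. No paired analysis was possible because the labels give no replicate numbers that groups share. The cause of the changes listed here was not tested.

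For the 37 genes, stimulated knockout against stimulated wild type gave 10 to 17 higher and 0 to 1 lower with 1 library left out, against 18 and 1, 12 and 1 in the fit of these groups alone, and 9 and 0 without stimulated knockout replicate 2 and stimulated wild-type replicate 3. The interaction gave 0 to 4 higher with 1 library left out, 7 without the filter, 6 with DESeq2 and 0 when libraries with Y-linked reads were left out, against 3. Fresh knockout against fresh wild type gave 1 higher, Slc2a3, in the fit of these groups alone and without the stimulated pair of libraries just named, against 0.

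Counts over all genes moved more. In fresh cells 125 rose and 28 fell, against 223 and 107 with DESeq2 (67.6% higher in place of 81.7%), 202 and 43 without the filter, 49 lower with limma-voom, 53 higher when libraries with Y-linked reads were left out, 44 lower without the stimulated pair, and 21 to 170 higher and 8 to 76 lower with 1 library left out. In stimulated cells 648 rose and 539 fell, against 358 lower in the fit of these groups alone, 359 lower when libraries with Y-linked reads were left out, 203 and 214 without the stimulated pair, and 258 to 796 and 256 to 532 with 1 library left out. For the interaction 89 were positive and 199 negative, against 197 and 358 with DESeq2, 151 positive without the filter, 55 and 67 when libraries with Y-linked reads were left out, 38 and 97 without the stimulated pair, and 32 to 153 and 99 to 252 with 1 library left out. With 3 libraries a group, differences in genes of a few CPM, such as Aldoc, Eno2 and Pfkfb1, are estimated with wide errors.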
